A study of Mus musculus with 64 samples.

Results

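Gene expression in the ventral tegmental area (VTA) was compared between mice labelled Clock delta 19 mutant and mice labelled Wildtype that had both received the vehicle of valproate. Valproate (VPA) is a mood stabiliser that inhibits histone deacetylases. The comparison held 13 mutant-labelled and 3 wildtype-labelled libraries, 16 of the 64 libraries of the series. Libraries were assigned to the groups by the genotype and treatment labels alone, but the comparison itself was chosen with earlier results of these data known. All mice were adult males of a strain given as 129S1/Svlm. Vehicle was given for 14 days, and tissue was collected at zeitgeber time 6 h, about 24 h after the last dose. Bilateral punches of 1 mm were centred on the VTA, and each mouse gave 1 poly(A)-selected library. The composition of the vehicle, the zygosity of the mutation and any litter or batch were not given in the sources used here.

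The numbers of mice did not follow the stated design, which gives 8 mice for each of 2 genotypes under 4 treatments. The mutant-labelled replicates 1 to 4 are mice 32 to 35 and replicates 5 to 13 are mice 49 to 57, while the wildtype-labelled replicates 1, 2 and 3 are mice 9, 11 and 12. In the whole series every wildtype-labelled mouse has a lower number than every mutant-labelled mouse. Whatever ran with the mouse number and the genotype label cannot be told apart here. Beside this comparison stand the same labels under the vehicle of ACY957, a class I deacetylase inhibitor (11 mutant-labelled and 5 wildtype-labelled libraries), and under VPA itself (8 and 8). These comparisons share no library with the one described here.

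CLOCK and its partner BMAL1 (encoded by Arntl) bind E-box elements in DNA and switch on the Period and cryptochrome genes, whose proteins return to inhibit them. The same pair drives the REV-ERB genes, which repress Arntl, and output transcription factors such as Dbp, Tef and Hlf. The delta 19 allele of Clock skips an exon and gives a dominant-negative protein. Mice that carry it have been studied for a mania-like behaviour in which the dopamine neurons of the VTA take part.

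Sequencing depth was similar under both labels. Total counts (in M reads) were 21.3 M to 30.6 M in the mutant-labelled libraries and 22.6 M to 24.5 M in the wildtype-labelled libraries, within the 20.1 M to 37.5 M of the series. The medians differed by less than this spread, and an exact two-sided permutation test of the difference in means gave p = 0.105. Pearson correlations across genes (log2 of CPM + 1) between any 2 of the 16 libraries lay between 0.984 and 0.997, and no libraries were identical. Markers of the labelled region were present in every library: Th, the rate-limiting enzyme of dopamine synthesis, lay at 202 to 1364 CPM, the counts of a gene scaled to the library total, under the mutant label and at 930, 1146 and 938 CPM under the wildtype label.

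Clock itself (chromosome 5, 76209868 to 76304792, minus strand, mm10) was first set against the labels. Its level was 58.2 to 87.9 CPM under the mutant label (median 71.8 CPM) and 85.0, 68.7 and 57.9 CPM in wildtype-labelled replicates 1, 2 and 3. The ranges overlapped almost wholly, and the log2 fold change, mutant label over wildtype label throughout, was 0.01 (SE 0.13, adjusted p = 0.999, edgeR). Counts per gene cannot show the skipping of 1 exon, so this level does not check the labels. Of the 13 mutant-labelled libraries 6 held the clock output gene Dbp within or above the wildtype-labelled range, as given for each library later. That number differed between clock genes, and Coq10b lay below its wildtype-labelled range in all 13. With the levels of Dbp and the departure from the stated numbers of mice, the genotype labels of the vehicle mice are themselves in doubt. Whether they are right was not tested, and each fold change is one between labels and not between checked genotypes.

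Of 15634 genes tested across the 64 libraries, 1 passed at an adjusted p under 0.05 (0.00640% of those tested, edgeR), and it fell under the mutant label. At an unadjusted p under 0.05 there were 805 genes (5.15%), 475 higher (3.04%) and 330 lower (2.11%). In 28 genes (0.179%) every mutant-labelled library lay under the lowest wildtype-labelled library, and in 26 genes (0.166%) every one lay over the highest. The median log2 fold change of all genes was 0.005, and it was below 0 in 48.2% of them. DESeq2 called 2 genes and limma voom 1.

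The gene that passed was Ackr2 (chromosome 9, 121898355 to 121911074, plus strand), an atypical chemokine receptor that takes up and degrades inflammatory chemokines. It lay at 0.215 to 0.644 CPM in the mutant-labelled libraries, with a median of 0.348 CPM, and at 0.258, 0.844 and 5.31 CPM in wildtype-labelled replicates 1, 2 and 3. Only wildtype-labelled replicate 3 stood apart, with 129 reads against 5 to 15 reads in the mutant-labelled libraries, and wildtype-labelled replicate 1 lay among them. The log2 fold change was -2.50 (SE 0.46, adjusted p = 0.0197, edgeR). Without wildtype-labelled replicate 3 it was -0.54 (adjusted p = 0.735, edgeR), and the call was also lost in limma voom and when the 2 groups were fitted alone. In the other 61 libraries of the series Ackr2 did not exceed 1.27 CPM.

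Lect1 (chromosome 14, 79637690 to 79662170, minus strand) followed, and here the groups were fully apart. The gene, now named Cnmd, encodes chondromodulin, a matrix protein known from cartilage as an inhibitor of blood vessel growth. It lay at 0.663 to 1.77 CPM under the mutant label (median 1.08 CPM) and at 2.37, 2.27 and 3.17 CPM under the wildtype label. All 13 mutant-labelled libraries were below the lowest wildtype-labelled one, as in 0.179% of all genes tested. The log2 fold change was -1.27 (SE 0.26, adjusted p = 0.058, edgeR), which did not pass, while DESeq2 (adjusted p = 0.0354) and limma voom (adjusted p = 0.0184) called the gene. Of the 61 other libraries of the series, mutant-labelled VPA vehicle included, 2 reached the lowest of these 3 wildtype-labelled libraries.

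**Figure D1:**
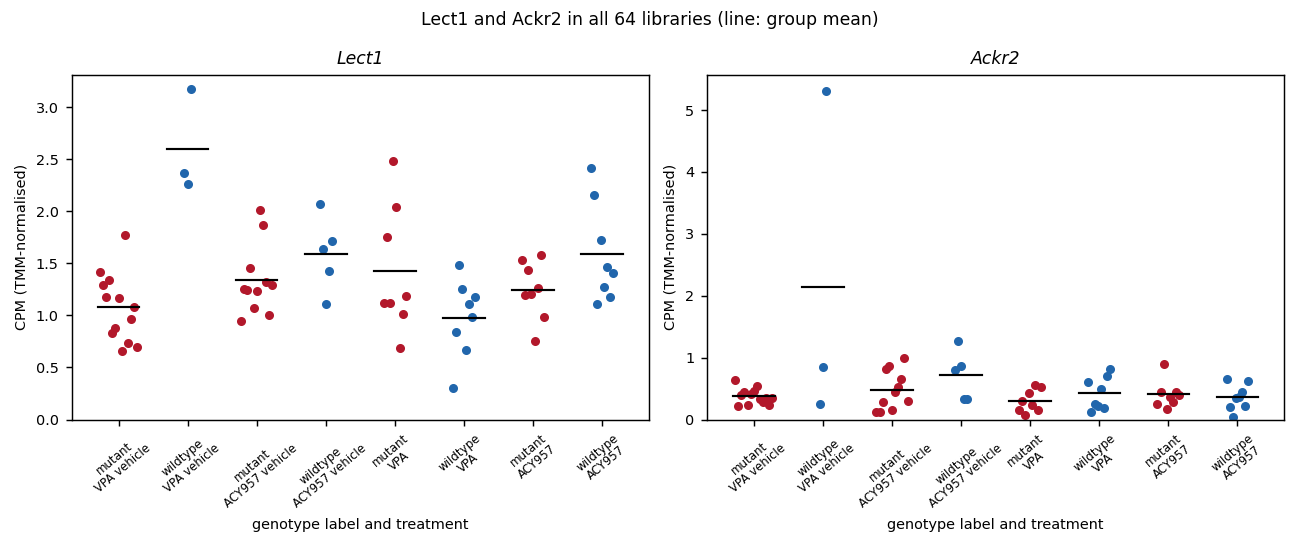
CPM of Lect1 (left) and Ackr2 (right) in all 64 libraries by genotype label and treatment; each point is a library and each line a group mean. The 3 wildtype-labelled VPA vehicle libraries lie at 2.27 CPM or more for Lect1, which 2 of the other 61 libraries reach, and 1 of them lies at 5.31 CPM for Ackr2.

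Clock target genes carried no call, but the repressors of the loop had fold changes on 1 side. Of 10 repressor genes, 0 passed, all 10 had a log2 fold change below 0 (48.2% of all genes did), and the median was -0.37 against 0.005 for all genes. At an unadjusted p under 0.05 there were 5 of the 10 (2.11% of all genes were lower at that level): Per2, Per3, Cry1, Nr1d2 and Bhlhe41. That count was 1, 0 and 6 without wildtype-labelled replicate 1, 2 and 3, it was 2 with mice 49 to 57 as the only mutant-labelled mice, and 2 of the 10 genes were above 0 without replicate 3. Of 10 output genes, 0 passed, 8 were below 0, the median was -0.22, and Hlf, Tef and Coq10b were at an unadjusted p under 0.05, which became 1 gene without wildtype-labelled replicate 2 or mutant-labelled replicate 4, 2 without wildtype-labelled replicate 1 or 3 or mutant-labelled replicate 1, and 5 without mutant-labelled replicate 6. Of 7 activators and ROR receptors, 0 passed, 3 were above 0 and 4 below, with a median of -0.01. Members of these and all later gene lists were chosen with earlier results of these data known. List counts beside those of all genes therefore describe the lists and test nothing.

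The E-box CACGTG, which reads the same on both strands, was searched in promoter windows from RefSeq (GRCm38.p6, 250 bases before to 50 bases after the start of the gene). It was found in 6 of 22 clock genes that had a window (27.3%), in 1321 of 11783 tested genes (11.2%) and in 2349 of 32851 windows in all (7.15%). The 6 were Per1, Cry1, Bhlhe41, Ciart, Tef and Coq10b. A match is a description of these letters and not a shown binding site. The windows of Ciart, with 3 copies, and of Bhlhe41 and Coq10b, with 1 copy each, are printed in full. Ciart and Bhlhe41 differed in level among the mutant-labelled libraries, and Coq10b was lower in all of them, as the values that follow show. Dbp and Cry2, with 0 copies in their windows, also differed among these libraries. Per1 and Cry1, with 1 copy each, lay within the wildtype-labelled range in most of them. Whether a copy goes with the level of a gene was not tested. Capitals mark the E-box.
Ciart, chr3:95882179-95882478, minus strand: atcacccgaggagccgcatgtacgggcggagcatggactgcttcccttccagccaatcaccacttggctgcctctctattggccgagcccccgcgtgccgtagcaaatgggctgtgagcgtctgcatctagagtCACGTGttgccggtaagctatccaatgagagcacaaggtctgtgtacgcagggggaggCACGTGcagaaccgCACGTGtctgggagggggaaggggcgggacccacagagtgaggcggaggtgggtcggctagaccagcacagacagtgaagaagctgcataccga
Bhlhe41, chr6:145865371-145865670, minus strand: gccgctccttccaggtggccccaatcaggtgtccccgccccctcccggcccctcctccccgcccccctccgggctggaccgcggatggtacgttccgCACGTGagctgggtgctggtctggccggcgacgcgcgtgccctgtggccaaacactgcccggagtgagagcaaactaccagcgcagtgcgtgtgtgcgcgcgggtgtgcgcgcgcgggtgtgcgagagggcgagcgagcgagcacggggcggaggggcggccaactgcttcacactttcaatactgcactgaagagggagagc
Coq10b, chr1:55052520-55052819, plus strand: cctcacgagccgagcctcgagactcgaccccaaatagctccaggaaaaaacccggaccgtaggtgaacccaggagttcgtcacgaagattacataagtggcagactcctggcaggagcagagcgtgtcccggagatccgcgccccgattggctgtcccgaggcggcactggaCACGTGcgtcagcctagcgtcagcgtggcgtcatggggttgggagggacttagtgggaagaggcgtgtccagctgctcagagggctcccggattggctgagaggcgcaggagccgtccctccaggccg

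The mutant-labelled libraries did not share 1 level of clock output. Ciart (chromosome 3, 95878503 to 95882251, minus strand), a repressor of CLOCK and BMAL1 also called CHRONO, lay at 0.963 to 2.05 CPM in mutant-labelled replicates 1, 2, 4, 9, 10, 11 and 12. It lay at 9.77, 12.7, 6.79, 9.63 and 9.30 CPM in mutant-labelled replicates 5, 6, 7, 8 and 13, and at 5.59 CPM in replicate 3. The wildtype-labelled replicates 1, 2 and 3 were at 5.99, 7.51 and 8.07 CPM. So 8 mutant-labelled libraries were below the wildtype-labelled range, 1 was within it and 4 were above, and the log2 fold change was -0.54 (SE 0.55, adjusted p = 0.936, edgeR).

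Dbp (chromosome 7, 45705088 to 45710203, plus strand), an output activator of the PAR bZIP family, divided the same libraries. It lay at 22.2 to 31.8 CPM in mutant-labelled replicates 1, 2, 4, 9, 10, 11 and 12, and at 63.6, 64.3, 101, 74.9, 65.2 and 69.9 CPM in replicates 3, 5, 6, 7, 8 and 13. The wildtype-labelled libraries were at 49.8, 93.6 and 73.1 CPM. No mutant-labelled library lay between 31.8 and 63.6 CPM, and the wildtype-labelled range begins within that gap. Dbp had a log2 fold change of -0.59 (SE 0.31) with an adjusted p of 0.913 (edgeR), and of -0.36 without wildtype-labelled replicate 2.

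**Figure D2:**
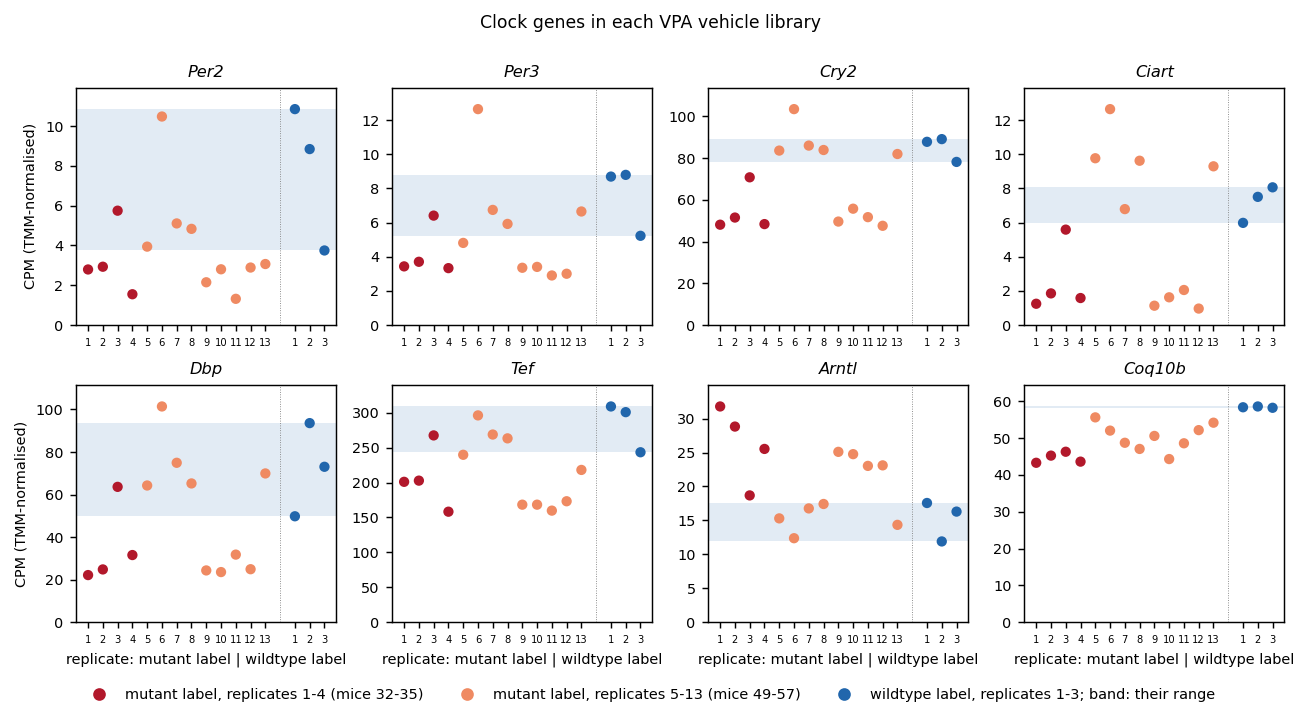
CPM of 8 clock genes in each VPA vehicle library, mutant-labelled replicates 1 to 13 left of wildtype-labelled replicates 1 to 3; the band is the range of the 3 wildtype-labelled libraries. Ciart, Dbp and Cry2 lie far below the band in 7 mutant-labelled libraries and in or over it in most of the others, while Coq10b is below the band in all 13.

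The repressors of the loop followed the same libraries to different extents. Cry2, a cryptochrome, lay at 47.5 to 55.7 CPM in the 7 libraries low in Ciart and at 70.8 to 103 CPM in the other 6 mutant-labelled libraries, against 87.8, 89.1 and 78.1 CPM under the wildtype label. Per2 (chromosome 1, 91415982 to 91459324, minus strand), a Period repressor, was at 1.32 to 10.5 CPM under the mutant label (median 2.93 CPM) and at 10.9, 8.84 and 3.75 CPM under the wildtype label. The 3 wildtype-labelled libraries also differed in Per2, with replicate 3 low. Its log2 fold change was -1.04 (SE 0.41, adjusted p = 0.913, edgeR), and in ACY957 vehicle and VPA it was -0.995 (adjusted p = 0.999, edgeR) and -1.42 (adjusted p = 0.0278, edgeR).

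Bhlhe41, which encodes the repressor DEC2, was at 32.1 to 75.7 CPM under the mutant label (median 42.6 CPM) against 61.4, 68.4 and 54.6 CPM under the wildtype label. Of the 13 mutant-labelled libraries 11 were below the lowest wildtype-labelled one, 1 was within the range and 1 was above it. That gave a log2 fold change of -0.39 (SE 0.16) with an adjusted p of 0.913 (edgeR). Nr1d2, which encodes REV-ERB beta, was at 87.8 to 215 CPM against 206, 245 and 189 CPM, and Nr1d1, which encodes REV-ERB alpha, at 18.7 to 48.5 CPM against 27.6, 32.4 and 44.3 CPM. Nr1d2 had a log2 fold change of -0.50 (SE 0.22) and Nr1d1 one of -0.07 (SE 0.20), neither of which passed, and that of Nr1d1 turned to 0.15 without wildtype-labelled replicate 3.

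Arntl (chromosome 7, 113207465 to 113314126, plus strand), the partner of Clock that REV-ERB represses, ran in the opposite direction. It lay at 23.03 to 31.8 CPM in mutant-labelled replicates 1, 2, 4, 9, 10, 11 and 12, and at 12.4 to 18.7 CPM in replicates 3, 5, 6, 7, 8 and 13. The wildtype-labelled libraries were at 17.6, 11.9 and 16.3 CPM. Thus 8 of the 13 mutant-labelled libraries were above the highest wildtype-labelled one and none was below the lowest. Arntl had a log2 fold change of 0.48 (SE 0.19) with an adjusted p of 0.913 (edgeR), beside 0.55 in ACY957 vehicle (adjusted p = 0.601, edgeR) and 0.73 in VPA (adjusted p = 0.00345, edgeR).

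Coq10b was the clock gene whose groups were fully apart. This gene (chromosome 1, 55052770 to 55072702, plus strand) encodes a mitochondrial coenzyme Q binding protein and is a rhythmic output in many tissues. It was at 43.3 to 55.6 CPM under the mutant label (median 48.6 CPM) and at 58.4, 58.6 and 58.2 CPM under the wildtype label. All 13 mutant-labelled libraries were lower, also those at the upper level of Ciart and Dbp. Such a separation was found in 0.179% of all genes tested, so by itself it does not set Coq10b apart. Its log2 fold change was -0.26 (SE 0.13, adjusted p = 0.913, edgeR), against -0.35 in ACY957 vehicle (adjusted p = 0.78, edgeR) and -0.47 in VPA (adjusted p = 0.0103, edgeR).

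Tef and Hlf, the other PAR bZIP activators, repeated the division of Dbp only in part and without a gap. Tef was at 158 to 296 CPM under the mutant label (median 203 CPM) and at 309, 301 and 243 CPM under the wildtype label, a log2 fold change of -0.41 (SE 0.19). Hlf was at 52.8 to 88.8 CPM (median 68.6 CPM) against 100.4, 86.4 and 75.7 CPM, a log2 fold change of -0.37 (SE 0.14). For these genes 9 and 10 of the 13 mutant-labelled libraries lay below the lowest wildtype-labelled one, and none lay above the highest. Those below included mutant-labelled replicates 5 and 13 in both genes and replicate 3 in Hlf, which were at the upper level of Dbp. Nfil3, the bZIP repressor that opposes Dbp at its sites, was at 5.22 to 12.8 CPM against 9.47, 5.51 and 6.67 CPM, and its log2 fold change of 0.21 (SE 0.20) was the highest of the output list. Without wildtype-labelled replicate 1 or 2 it was 0.46 or 0.05.

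The 18 repressor and output genes with a log2 fold change below 0 were also counted library by library. Since these genes were taken for their direction, the counts describe the libraries and test nothing. Between 14 and 16 of the 18 lay below the lowest wildtype-labelled library in mutant-labelled replicates 1, 2, 4, 9, 10, 11 and 12. In replicates 3, 5, 6, 7, 8 and 13 it was between 2 and 7 of the 18. Both kinds of library occur among mice 32 to 35 and among mice 49 to 57.

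**Figure D3:**
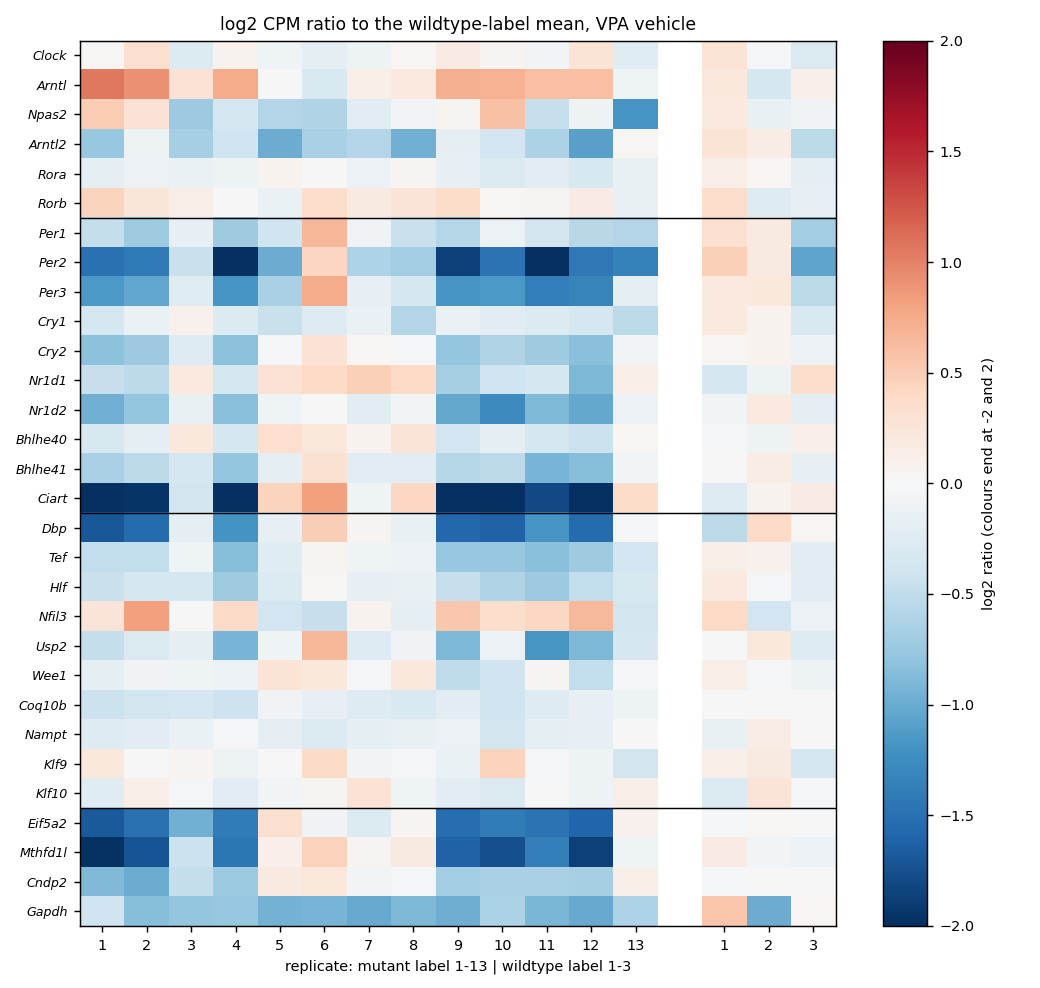
log2 ratio of CPM to the mean of the 3 wildtype-labelled libraries, for 26 clock genes and 4 others (lower block), in mutant-labelled replicates 1 to 13 and, right of the gap, wildtype-labelled replicates 1 to 3; blue is lower, red higher, and colours end at -2 and 2. Mutant-labelled replicates 1, 2, 4 and 9 to 12 are blue in Ciart, Dbp, Eif5a2 and Mthfd1l and red in Arntl, and most of the remaining 6 are paler or of the other colour.

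Genes outside the clock lists divided the same libraries, and these were chosen after their values were seen. Eif5a2 (chromosome 3, 28781276 to 28798846, plus strand), which encodes an isoform of a translation factor, was at 83.7 to 102 CPM in mutant-labelled replicates 1, 2, 4, 9, 10, 11 and 12. It was at 138 CPM in replicate 3 and at 336, 257, 224, 280 and 285 CPM in replicates 5, 6, 7, 8 and 13. The wildtype-labelled libraries were at 263, 275 and 270 CPM, so the lower 7 were at less than the level of any wildtype-labelled library and the upper 5 lay around it. Eif5a2 had a log2 fold change of -0.68 (SE 0.34) with an adjusted p of 0.913 (edgeR).

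Mthfd1l, a mitochondrial enzyme of folate metabolism, and Cndp2, a dipeptidase, showed the same division. Mthfd1l was at 4.25 to 6.43 CPM in those 7 libraries, at 12.4 CPM in replicate 3 and at 15.7 to 22.9 CPM in the other 5, against 18.7, 16.1 and 15.4 CPM under the wildtype label. Cndp2 was at 34.9 to 44.4 CPM, 49.7 CPM and 66.5 to 81.4 CPM in the same order, against 68.6, 69.8 and 69.8 CPM. With the mutant-labelled mice 32 to 35 alone, Eif5a2 had a log2 fold change of -1.35 (adjusted p = 0.00417, edgeR) and passed, together with Cndp2, Fmo2 and Ifit3b. With the mutant-labelled mice 49 to 57 alone, no gene passed in edgeR, and 859 were at an unadjusted p under 0.05.

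Fmo2, a flavin monooxygenase, had a large fold change without a clear separation. It was at 0.172 to 3.51 CPM under the mutant label (median 0.732 CPM) and at 5.04, 4.49 and 0.988 CPM under the wildtype label. Wildtype-labelled replicate 3 lay within the mutant-labelled range, and the 2 others above it. Its log2 fold change was -1.75 (SE 0.48, adjusted p = 0.774, edgeR), beside -2.33 in VPA (adjusted p = 0.0025, edgeR).

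Genes of dopamine signalling and of striatal-type neurons were lower under the mutant label by most of their fold changes, and none passed. The lists held the receptors Drd1, Drd2 and Adora2a, the phosphodiesterase Pde10a and the regulator Ppp1r1b (DARPP-32), which carry dopamine and adenosine signals in the striatum. Of 11 tested genes of dopamine receptors and their signalling, 10 had a log2 fold change below 0, with a median of -0.45, and 6 were at an unadjusted p under 0.05 (2.11% of all genes were lower at that level). The count of 6 became 2 and 3 without wildtype-labelled replicate 2 and 3, and with both vehicles pooled it was 0 and the median -0.06. Of 10 striatal projection neuron markers, 8 were below 0, with a median of -0.43, and 5 were at an unadjusted p under 0.05. Both lists were chosen with earlier results of these data known, so their counts are descriptive. The summed level of the striatal list was 283 to 521 CPM under the mutant label (median 393 CPM) and 375 to 524 CPM under the wildtype label (median 425 CPM), and no member was at 0 in all libraries. The part of neighbouring tissue in these levels was not tested. In bulk punches, fewer cells of a type and less RNA per cell cannot be told apart.

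Drd1 (chromosome 13, 54051183 to 54055705, minus strand), the D1 dopamine receptor, was at 2.61 to 12.6 CPM under the mutant label (median 6.80 CPM) and at 8.35, 17.02 and 13.9 CPM under the wildtype label. The ranges overlapped, with 9 mutant-labelled libraries below and 4 within the wildtype-labelled range. Drd1 had a log2 fold change of -0.90 (SE 0.28) with an adjusted p of 0.913 (edgeR). Adora2a, an adenosine receptor of indirect pathway neurons, was at 1.53 to 9.51 CPM (median 3.01 CPM) against 3.96, 10.7 and 14.1 CPM, and its log2 fold change was -1.15 (SE 0.41, adjusted p = 0.913, edgeR), or -0.76 without wildtype-labelled replicate 3.

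Pdyn, the precursor of dynorphin, had the lowest log2 fold change of these lists. It was at 1.99 to 14.3 CPM under the mutant label (median 5.24 CPM) and at 5.47, 21.3 and 25.9 CPM under the wildtype label. Mutant-labelled replicates 1, 8 and 10 were the highest of their label, and wildtype-labelled replicate 1 lay within the mutant-labelled range, below replicates 2 and 3. Pdyn had a log2 fold change of -1.44 (SE 0.38) with an adjusted p of 0.669 (edgeR).

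Pde10a, the phosphodiesterase of striatal neurons, was more even. It was at 28.3 to 48.6 CPM under the mutant label (median 34.4 CPM) and at 43.5, 58.3 and 46.02 CPM under the wildtype label, a log2 fold change of -0.48 (SE 0.12) with an adjusted p of 0.669 (edgeR). Only mutant-labelled replicates 8 and 10 reached the wildtype-labelled range. Ido1, an enzyme of tryptophan breakdown on the striatal list, was at 0.530 to 2.07 CPM against 1.72, 3.02 and 1.52 CPM, a log2 fold change of -1.08 (SE 0.28) with an adjusted p of 0.669 (edgeR). In Ido1 mutant-labelled replicate 8 alone lay within the wildtype-labelled range, and the other 12 lay below it, and without wildtype-labelled replicate 2 its log2 fold change was -0.72.

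**Figure D4:**
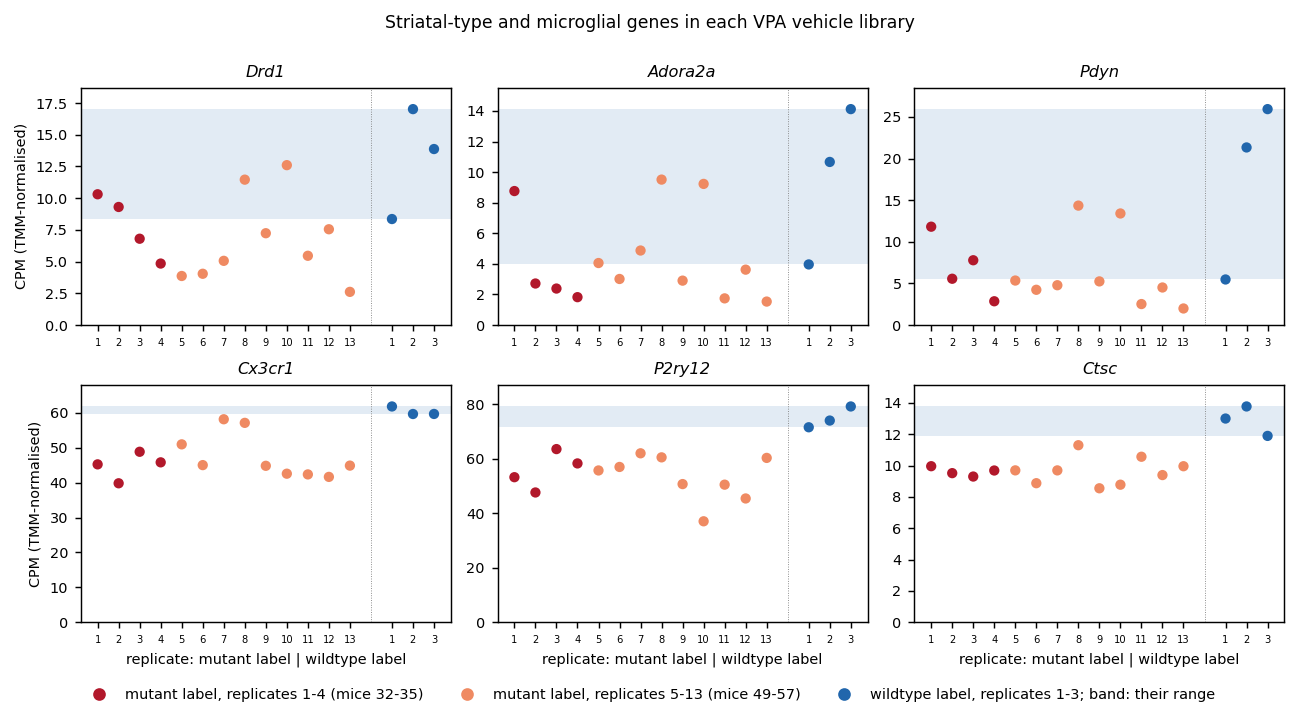
CPM of the striatal-type genes Drd1, Adora2a and Pdyn (upper row) and of the microglial genes Cx3cr1 and P2ry12 with Ctsc (lower row) in each VPA vehicle library, mutant-labelled replicates 1 to 13 left of wildtype-labelled replicates 1 to 3; the band is the wildtype-labelled range. In the upper row mutant-labelled replicates 1, 8 and 10 lie within the band in all 3 genes and wildtype-labelled replicate 1 is the lowest of its label, while in the lower row all 13 mutant-labelled libraries lie below the band.

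Under the ACY957 vehicle the same genes had medians above 0. There the median log2 fold change was 0.24 in the signalling list and 0.08 in the striatal list, beside -0.005 for all genes. Drd1 had a log2 fold change of 0.39 (SE 0.26) and Adora2a of 0.70 (SE 0.40), neither of which passed. The difference between the label effects, VPA vehicle minus ACY957 vehicle, was -1.28 (SE 0.39) for Drd1, -1.85 (SE 0.58) for Adora2a and -0.59 (SE 0.17) for Pde10a on the log2 scale. None of these passed (adjusted p = 0.9999 for each, edgeR). The mutant-labelled mean of Drd1 was close under both vehicles and the wildtype-labelled mean was not. Drd1 averaged 7.01 ± 3.12 CPM under VPA vehicle and 7.11 ± 2.11 CPM under ACY957 vehicle in mutant-labelled libraries (SD, n = 13 and 11), and 13.1 ± 4.39 CPM and 5.46 ± 1.82 CPM in wildtype-labelled ones (SD, n = 3 and 5).

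Microglial genes had small fold changes, all below 0, and most of them overlapped between the labels. Microglia are the resident macrophages of the brain. Of 16 listed genes, 0 passed, 16 had a log2 fold change below 0 (48.2% of all genes did), and the median was -0.26. At an unadjusted p under 0.05 there were 7 (2.11% of all genes were lower at that level). Without wildtype-labelled replicate 1 that count was 3 and 1 gene was above 0. The direction was shared: 15 of the 16 were below 0 in ACY957 vehicle (median -0.14) and 14 under VPA (median -0.16). In 3 of the 16 genes (0.179% of all genes) every mutant-labelled library lay below every wildtype-labelled one. The summed level of the list was 608 to 858 CPM under the mutant label (median 683 CPM) and 840 to 899 CPM under the wildtype label. Its members were chosen with earlier results of these data known, so the counts beside those of all genes test nothing.

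Cx3cr1 and P2ry12 were among the genes fully apart. Cx3cr1 (chromosome 9, 119901616 to 120069879, minus strand), the fractalkine receptor, was at 39.8 to 58.1 CPM under the mutant label (median 45.01 CPM) and at 61.8, 59.6 and 59.7 CPM under the wildtype label. P2ry12, the purinergic receptor of ramified microglia, was at 37.1 to 63.6 CPM (median 55.7 CPM) against 71.6, 74.0 and 79.2 CPM. The log2 fold changes were -0.37 (SE 0.11) for Cx3cr1 and -0.47 (SE 0.16) for P2ry12, both with an adjusted p of 0.913 (edgeR).

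Outside that list stood Ctsc and Ctss, of the antigen presentation and lysosome list, and Plek and Csf3r, named for their small p. Ctsc (chromosome 7, 88278085 to 88310888, plus strand), which encodes cathepsin C, was at 8.55 to 11.3 CPM under the mutant label (median 9.69 CPM) and at 13.005, 13.8 and 11.9 CPM under the wildtype label. Ctss, cathepsin S, was at 95.9 to 136 CPM (median 117 CPM) against 153, 152 and 151 CPM, and Plek, the protein kinase C substrate pleckstrin, at 17.3 to 24.2 CPM against 27.4, 30.4 and 24.8 CPM. All 13 mutant-labelled libraries were below all 3 wildtype-labelled libraries in Ctsc, Ctss and Plek, as in 0.179% of all genes tested. The log2 fold changes were -0.42 (SE 0.10, adjusted p = 0.619, edgeR) for Ctsc, -0.38 (SE 0.12) for Ctss and -0.39 (SE 0.10) for Plek, and Csf3r, the receptor of granulocyte colony-stimulating factor, had -0.74 (SE 0.20).

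The 12 genes of the antigen presentation and lysosome list did not move as 1 block. Its median was -0.06, with 4 genes above 0 and 8 below, and 0 passed. H2-K1, a class I histocompatibility gene, was at 17.6 to 48.01 CPM under the mutant label (median 33.2 CPM) and at 19.9, 18.7 and 21.6 CPM under the wildtype label. Of the mutant-labelled libraries 11 were above the wildtype-labelled range, 1 was within it and 1 was below, and the log2 fold change was 0.61 (SE 0.26, adjusted p = 0.913, edgeR). Among 11 interferon-induced genes the median was 0.05, and Ifit3 and Ifit3b, a pair of close paralogs between which reads may be split, had the lowest values, -0.91 (SE 0.27) and -0.71 (SE 0.28).

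Ifit3b followed the libraries set apart by Eif5a2. It was at 7.31, 8.00, 5.71, 6.86 and 7.001 CPM in mutant-labelled replicates 5, 6, 7, 8 and 13, and at 2.41 to 3.74 CPM in the other 8. The wildtype-labelled libraries were at 6.55, 8.62 and 6.92 CPM. The 8 lower libraries were thus below the wildtype-labelled range, and replicate 3 was among them.

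Dopamine neuron genes stood at different levels in the separate runs of mouse numbers of the mutant label. Of 20 genes, 0 passed, 19 had a log2 fold change below 0, the median was -0.40, and none was at an unadjusted p under 0.05. Th (chromosome 7, 142892752 to 142931128, minus strand) was at 396, 328, 202 and 493 CPM in mutant-labelled replicates 1 to 4 (mice 32 to 35) and at 635 to 1364 CPM in replicates 5 to 13 (mice 49 to 57), against 930, 1146 and 938 CPM under the wildtype label. The first 4 lay below every wildtype-labelled library, and the others on both sides of them. The log2 fold change of Th was -0.35 (SE 0.51, adjusted p = 0.956, edgeR).

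The dopamine transporter divided the same runs of mice. Slc6a3, the transporter, was at 1073, 936, 524 and 1408 CPM in mutant-labelled replicates 1 to 4 and at 1617 to 3666 CPM in replicates 5 to 13, against 2801, 3398 and 2435 CPM. The summed level of the 20 genes was 2049 to 4543 CPM in replicates 1 to 4 and 5357 to 10772 CPM in replicates 5 to 13, against 7557 to 10502 CPM under the wildtype label. Dopamine neuron genes were not alone in this. The summed level of 6 glutamate neuron genes ran the other way, at 895 to 1053 CPM in replicates 1 to 4 and 715 to 850 CPM in replicates 5 to 13. Under the wildtype label it was 760 to 792 CPM. What the punches of each run held was not tested. With mice 32 to 35 alone the median log2 fold change of the list was -1.39, and with mice 49 to 57 alone it was -0.16. In a fit with Th as a covariate Ackr2 and Lect1 passed (adjusted p = 0.0274 for Lect1, edgeR), and the medians of the repressor, microglial and striatal lists were -0.39, -0.24 and -0.51.

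**Figure D5:**
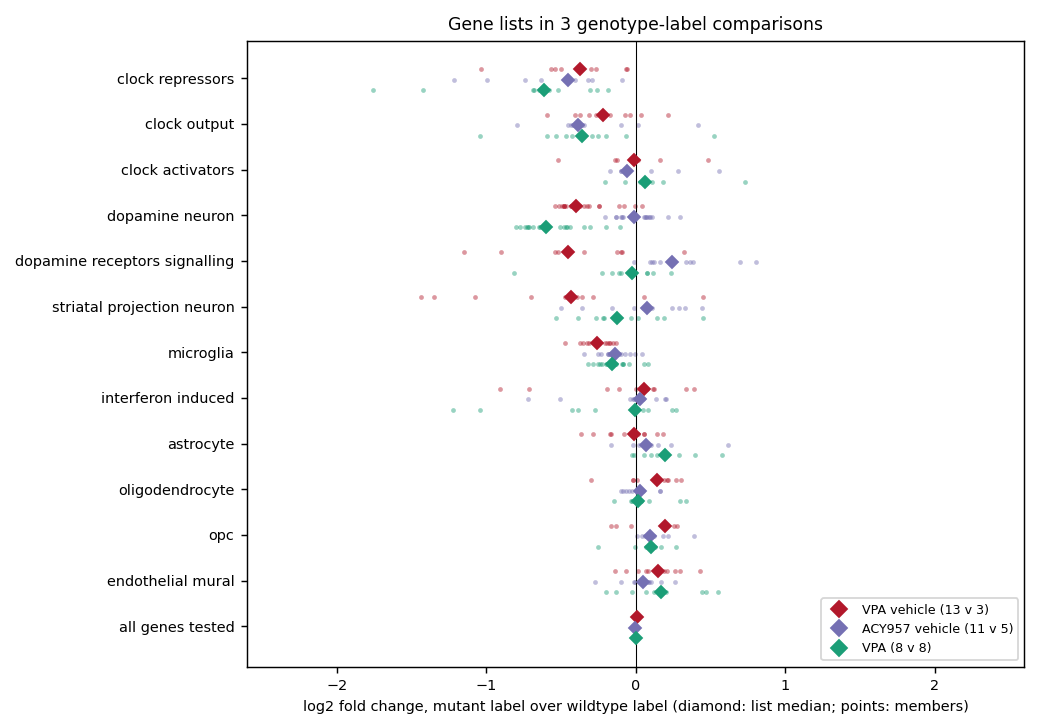
log2 fold change, mutant label over wildtype label, of 12 gene lists and of all genes tested under VPA vehicle, ACY957 vehicle and VPA; points are member genes and diamonds list medians. Under VPA vehicle the medians of the clock repressor, dopamine and microglial lists lie between -0.26 and -0.45, and that of all genes at 0.005.

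Glial and vascular genes other than those of microglia had list medians from -0.01 to 0.20, beside 0.005 for all genes. Of 12 oligodendrocyte genes 9 were above 0, with a median of 0.14, of 8 genes of their precursors 5 were, with a median of 0.20, and of 12 astrocyte genes 6 were, with a median of -0.01. Of 12 endothelial and mural genes 10 were above 0, with a median of 0.15, and none of these 4 lists had a member that passed. Cldn5, the tight junction protein claudin 5 of brain endothelium, was at 36.4 to 99.9 CPM under the mutant label (median 77.6 CPM) and at 62.7, 35.9 and 70.1 CPM under the wildtype label. Its log2 fold change was 0.43 (SE 0.19, adjusted p = 0.913, edgeR), with 10 of 13 mutant-labelled libraries above the wildtype-labelled range. Without wildtype-labelled replicate 2, the lowest of its label, it was 0.19.

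The genes with the smallest p among those higher under the mutant label were of low to middle level and did not pass. Stoml1 (chromosome 9, 58253164 to 58262520, plus strand), a membrane protein of the stomatin family, was at 52.4 to 61.8 CPM under the mutant label (median 54.3 CPM) and at 38.2, 46.8 and 49.98 CPM under the wildtype label. Gpatch4, a G-patch domain protein, was at 16.1 to 21.4 CPM (median 19.9 CPM) against 15.2, 15.9 and 15.4 CPM. All 13 mutant-labelled libraries were above all 3 wildtype-labelled ones in both genes, as in 0.166% of all genes tested. Their log2 fold changes were 0.29 (SE 0.07, adjusted p = 0.362, edgeR) and 0.33 (SE 0.09, adjusted p = 0.882, edgeR), and that of Stoml1 was 0.19 without wildtype-labelled replicate 1.

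Snhg17, a small nucleolar RNA host gene, and Ebi3, a subunit of heterodimeric interleukins, had larger fold changes at low levels. Snhg17 was at 1.21 to 2.23 CPM against 0.818, 1.24 and 1.07 CPM, a log2 fold change of 0.77 (SE 0.22) with an adjusted p of 0.908 (edgeR). Ebi3 was at 0.431 to 1.08 CPM against 0.129, 0.489 and 0.370 CPM, a log2 fold change of 1.08 (SE 0.33) with an adjusted p of 0.913 (edgeR). In these genes 12 and 11 of the 13 mutant-labelled libraries were above the wildtype-labelled range. Without wildtype-labelled replicate 1 the log2 fold change of Ebi3 was 0.70.

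Gapdh, often used as a reference gene, was uneven between the wildtype-labelled libraries. It was at 3.74 to 5.71 CPM under the mutant label (median 4.01 CPM) and at 11.1, 3.78 and 7.70 CPM in wildtype-labelled replicates 1, 2 and 3. Replicates 1 and 3 were above every mutant-labelled library and replicate 2 among the lowest. Gapdh had a log2 fold change of -0.81 (SE 0.25) with an adjusted p of 0.913 (edgeR), and with both vehicles pooled it was -1.02 (adjusted p = 0.000267, edgeR) and was the 1 gene called. Without wildtype-labelled replicate 1 the log2 fold change under VPA vehicle was -0.425. Gapdh has many processed pseudogenes, so its counts are uncertain.

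The receptor subunit Gabrd of extrasynaptic GABA-A receptors and the matrix protein Reln were also among the genes with fold changes below 0. Gabrd was at 0.860 to 4.84 CPM under the mutant label (median 1.43 CPM) and at 2.02, 6.31 and 7.90 CPM under the wildtype label, a log2 fold change of -1.31 (SE 0.57) with an adjusted p of 0.913 (edgeR). The highest mutant-labelled libraries were again replicates 1, 8 and 10, and wildtype-labelled replicate 1 was again the lowest of its label. Reln was at 20.2 to 36.3 CPM (median 25.6 CPM) against 35.9, 37.02 and 29.2 CPM, a log2 fold change of -0.38 (SE 0.14) with an adjusted p of 0.913 (edgeR).

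The label effect under VPA vehicle was finally set against the label effects in the other mice, by interaction terms of the same model. Against the ACY957 vehicle 0 of 15634 genes differed (0%) in edgeR, DESeq2 and limma voom, and 488 were at an unadjusted p under 0.05 (3.12%). Against VPA, 1 gene differed (0.00640%), with 444 at an unadjusted p under 0.05 (2.84%). That gene was Lect1, with a difference of -1.82 on the log2 scale (SE 0.34, adjusted p = 0.029, edgeR). Its label effect was -1.27 (SE 0.26) under VPA vehicle, -0.25 (SE 0.24) under ACY957 vehicle and 0.54 (SE 0.22) under VPA.

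The levels behind that difference were furthest apart in wildtype-labelled mice. Lect1 averaged 1.08 ± 0.326 CPM under the mutant label and 2.602 ± 0.495 CPM under the wildtype label in VPA vehicle mice (SD, n = 13 and 3). Under VPA it averaged 1.43 ± 0.604 CPM and 0.978 ± 0.369 CPM (SD, n = 8 and 8). Under ACY957 vehicle it averaged 1.34 ± 0.334 CPM and 1.59 ± 0.357 CPM (SD, n = 11 and 5). The difference rests on 3 wildtype-labelled libraries, and without replicate 1, 2 or 3 of them its adjusted p was 0.0955, 0.0705 or 0.892 (edgeR).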

How the data were processed

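RNA from VTA punches of 64 mice was sequenced on a NextSeq 500 with reads of 75 bases, per the labels' protocols. The authors deposited raw read counts per gene symbol, not normalized, for 24421 symbols. Alignment to mm10 with TopHat2 2.0.9 and counting with HTSeq 0.6.1 are given in the design text, while the submitters' processing notes name Trimmomatic and HISAT2, so the aligner is uncertain, and whether counting used strand was not given in the sources used here. Positions came from GENCODE M21, which matched 23376 symbols, and promoter windows from RefSeq GRCm38.p6.

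Groups followed the labels. The deposited counts entered the quasi-likelihood F test of edgeR 4.0.16 (R 4.3.3), with TMM factors and filterByExpr. All 64 libraries were fitted together by group means, which kept 15634 genes. Benjamini-Hochberg adjustment ran over these genes within each comparison, at a threshold of 0.05. Each SE was taken as the absolute log2 fold change divided by the root of F. Levels are CPM with TMM factors, and CPM does not correct for gene length. Named were Clock, the genes that passed, the 10 with the smallest p in each direction, all clock genes, up to 4 members of each other list and, in each interaction, 5 genes per direction by p; some of these are left out for length or not reported here. The groups compared, members and lists were chosen with earlier results of these data known. The procedure was tested on simulated counts. Alternatives used DESeq2 1.42.0, limma voom 3.58.1, other size factors, no filter, the compared groups alone, runs of mouse numbers, Th as a covariate, pooled vehicles, and leaving out each of the 16 libraries. Individual mice are the replicates, per the design text.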

Additional observations from a re-analysis of the deposited data

Results flagged for a closer look

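The label effect on Lect1 differed between VPA vehicle and VPA by a test of the difference itself. The difference was -1.82 on the log2 scale (SE 0.34, adjusted p = 0.029, edgeR), from a label effect of -1.27 under VPA vehicle and 0.54 under VPA. All 13 mutant-labelled VPA vehicle libraries were below the 3 wildtype-labelled ones, whereas the groups overlapped under VPA. With the compared groups fitted alone the difference was -1.81 (adjusted p = 0.939, edgeR) and did not pass.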

How the results depend on the processing

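The count of genes that passed for the genotype label under VPA vehicle was 1 and stayed between 0 and 4. It was 2 with DESeq2 and with Th as a covariate, 3 with no filter on low counts (Ackr2, Lect1 and Gnrh1), 4 with the mutant-labelled mice up to 39 alone, and 0 with mice from 48 on alone or the compared groups alone. Leaving out 1 library gave 0 to 2, with 0 without wildtype-labelled replicate 3 and 2 without mutant-labelled replicate 1 or 9. The log2 fold change of Ackr2 ranged from -3.02 to -0.54, with adjusted p from 0.000421 to 0.972 (edgeR, DESeq2 and limma voom), and the gene did not pass in voom, with the compared groups alone, with either run of mouse numbers alone, with both vehicles pooled or without wildtype-labelled replicate 3. The fold change of Lect1 stayed below 0 under all 25 alternatives, from -1.42 to -0.71. The difference between the label effects under VPA vehicle and VPA was called in 2 genes with no filter and in 0 with the compared groups alone or mice up to 39 alone, and in 0 to 1 without 1 library. It was 0 without any 1 of the 3 wildtype-labelled libraries and without mutant-labelled replicate 5, 10 or 13. Small fold changes turned: Clock was at -0.0056 and Nr1d1 at 0.0088 with mice from 48 on, and Rgs9 at 0.0373 with both vehicles pooled. Without 1 library Clock ranged from -0.111 to 0.169, Nr1d1 from -0.209 to 0.148, and the difference of Ackr2 from its ACY957 vehicle effect from -2.43 to 0.0445. The difference in total counts was 2.67 M reads and ranged from 2.22 M to 3.17 M without 1 library, at 3.07 M without mutant-labelled replicate 7 (exact permutation p = 0.0462). For these changes the cause was not tested. No paired analysis was possible because the labels give mouse numbers only, which the groups do not share.

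With 3 wildtype-labelled libraries, 1 of them can set a mean or a spread. The genotype labels are in doubt, as said beside the level of Clock. The mutant label covers separate levels of clock output, so the fold change of a clock gene averages over them. Ackr2 rests on 5 to 129 reads per library.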

Other observations

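Glucocorticoid-responsive genes varied between libraries of both labels. Of 12 genes 0 passed, 4 had a log2 fold change above 0 and 8 below, with a median of -0.06. Sgk1, a kinase induced by glucocorticoids, was at 585, 288, 235 and 401 CPM in mutant-labelled replicates 1, 3, 6 and 10 and at 56.4 to 109 CPM in the other 9, against 204, 282 and 63.9 CPM under the wildtype label. Plin4, a lipid droplet protein, was at 13.4 and 17.1 CPM in mutant-labelled replicates 1 and 10 and at 0.313 to 3.92 CPM in the others, against 7.92, 3.73 and 0.535 CPM. The heat shock genes divided other libraries: Hspa1b was at 16.5, 24.0 and 18.3 CPM in mutant-labelled replicates 2, 9 and 12 and at 0.821 to 6.94 CPM in the others, against 17.5, 1.51 and 0.947 CPM under the wildtype label.

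Pttg1, which encodes securin of the cell cycle, lay at separate levels. It was at 29.2, 29.2, 26.6 and 28.02 CPM in mutant-labelled replicates 1, 8, 10 and 11 and at 1.21 to 2.92 CPM in the other 9, against 1.51, 1.38 and 2.51 CPM under the wildtype label. Replicates 1, 8 and 10 are also those with the highest Adora2a and Pdyn of their label, while replicate 11 is not. The division differs from that of Ciart and Dbp, since replicate 8 lay at their upper level and the other 3 at the lower.

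The marker genes Gh, Prl and Ccdc153 of neighbouring tissues were high in single libraries. The pituitary hormone genes Gh and Prl were at 3.83 CPM each in mutant-labelled replicate 13, at 1.503 and 0.558 CPM in replicate 1 and at 0.117 CPM or less in the other 11, against 0 CPM for Gh and 0 to 0.0444 CPM for Prl under the wildtype label. Tph2 and Slc6a4, markers of serotonin neurons, were at 13.9 and 6.69 CPM in mutant-labelled replicate 13, and their levels in the other libraries are not given here. The summed level of the 5 genes of the serotonin list did not set that library apart. It reached 94.7 CPM in mice 49 to 57, 96.7 CPM in mice 32 to 35 and 95.2 CPM under the wildtype label. Ccdc153, a gene of ependymal cilia, was at 10.5 CPM in mutant-labelled replicate 3 and at 0.0348 to 1.42 CPM in the other 12, against 0.0431, 0.133 and 0.0823 CPM. Of the 5 genes of the blood list, the haemoglobin genes were at 0 counts in all 64 libraries. The remaining gene was present, at 0.732 to 17.1 CPM under the mutant label and 4.09 to 7.74 CPM under the wildtype label. How much blood the punches held was not tested.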
